A study of Mus musculus with 11 samples.

Results

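Frzb, Sfrp1, Sfrp2, Sfrp4, Dkk2, Dkk3, Rspo1, Wnt4 and Fzd1 are WNT antagonists and WNT signal genes, and were taken by symbol as 9 of the 23507 gene rows of a single-cell count table from mouse perigonadal white adipose tissue (pgWAT). The table held 3261 cells of the stromal vascular fraction, sorted into 11 plates and sequenced with Smart-seq2, a full-length protocol that counts reads and not molecules. The donors were PdgfrbGFP reporter mice, in which a Pdgfrb transgene drives GFP, on a C57BL6/J background and between 12 and 20 weeks of age; all carried the reporter and none was treated. Cells came from 3 male mice (mice 1, 4 and 8) and 4 female mouse ids (2, 3, 5 and 6/7), of which 6/7 stands for a pair of animals that shared plates and was counted as 1 sample. CD45-positive cells were gated out and the plates were sorted for PDGFRB-GFP, CD31 or DPP4 in combinations that differed between mice, so a mouse, its plates and its sort cannot be told apart.

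WNT ligands are secreted lipid-modified proteins that bind Frizzled receptors and LRP co-receptors and, in the canonical branch, stabilise β-catenin. Secreted frizzled-related proteins bind WNT ligands outside the cell, Dickkopf proteins act mainly on the LRP co-receptors, and R-spondins keep Frizzled receptors at the cell surface. In adipose tissue WNT signalling is known as a brake on the conversion of precursors to adipocytes.

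Cells were classed from markers that hold no WNT gene, and the clusters behind the classes were made without the WNT genes. Adipose stem cell-like (ASC-like) cells numbered 2251, or 69% of all cells, beside 562 blood endothelial (EC)-like and 137 macrophage-like cells. Mural cells comprised 60 pericyte-like and 41 vascular smooth muscle (VSMC)-like cells. A further 19 cells were epithelial-like, 22 were lymphatic EC-like, and 169 stayed unnamed. All 4 defining ASC markers (Pdgfra, Col1a1, Dcn, Lum) were present in every ASC-like sum, with a summed level of 9880 to 22000 CPM (reads scaled to a common library size) in male and 11200 to 14700 CPM in female mice, against 10.4 to 32.2 CPM in EC-like sums. Each mouse is 1 sample, and p-values measure the spread between these mice. ASC-like cells were further divided by marker scores into 827 ASC1a-like, 651 ASC1b-like and 773 ASC2-like cells. These are ranges of a score and not separate types, and 507 cells (22.5%) lay within 0.25 of a boundary. Each marker was scaled within the ASC-like cells of a mouse, so a label ranks a cell against others of its mouse. A label need not mean the same cells in each mouse. The study's own clusters divide the ASC of the male mice far less evenly, with few or no cells in some subtypes. Cells held a median of 629323 reads. Ribosomal RNA rows took 29.9 to 66.9% of the reads of an ASC-like sum, and levels are therefore given as CPM scaled with TMM factors over all sums of a mouse and class.

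The start regions of the genes are shown so that members with different patterns across the mice can be set side by side in sequence. RefSeq (GRCm38.p6) gave the 250 bases before the start for 6 of the 9 genes, counted from its own start sites, and the pair below belong to Dkk2, whose male ASC levels all lay above the female ones, and Fzd1, whose male and female levels overlapped. The Dkk2 difference did not pass the test described below, and male and female ASC-like sums did not overlap for 15.8% of all tested genes. Capitals mark the motifs searched on both strands, namely the TATA box TATAAA, the GC box GGGCGG and the steroid receptor hexamer AGAACA, whose complement reads TGTTCT. The Dkk2 window lies on the plus strand at chr3:132085042-132085291 and the Fzd1 window on the minus strand at chr5:4758217-4758466.
Dkk2: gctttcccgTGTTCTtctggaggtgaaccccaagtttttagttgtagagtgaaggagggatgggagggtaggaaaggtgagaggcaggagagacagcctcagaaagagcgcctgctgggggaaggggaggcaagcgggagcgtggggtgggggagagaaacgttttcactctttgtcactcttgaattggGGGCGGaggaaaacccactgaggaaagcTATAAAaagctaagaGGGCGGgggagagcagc
Fzd1: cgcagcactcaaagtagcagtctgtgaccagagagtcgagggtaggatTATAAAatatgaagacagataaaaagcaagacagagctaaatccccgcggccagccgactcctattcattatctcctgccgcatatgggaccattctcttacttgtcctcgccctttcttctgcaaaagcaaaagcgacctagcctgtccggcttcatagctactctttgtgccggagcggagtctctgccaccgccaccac
For Frzb and Wnt4 the RefSeq start lies inside the gene as the GENCODE annotation used for positions places it, so those windows overlap the gene and their letters are not shown. The Dkk2 window held 1 TATA box, 2 GC boxes and 1 steroid receptor hexamer at 55.6% G and C bases, and the Fzd1 window held 1 TATA box at 51.2%. The windows of Sfrp2 (63.6%) and Rspo1 (66.8%) held none of the motifs, where the median over 32851 such windows was 52.4%. Among all windows 12.4% held the TATA box, 32.7% the GC box and 16.1% the steroid receptor hexamer. The windows of Frzb (64.4%) and Wnt4 (85.2%) held 1 and 8 GC boxes, and neither held a TATA box or a steroid receptor hexamer. Of the 6 genes with a window, only Frzb was called between the sexes in ASC-like cells. Whether any motif bears on the levels was not tested. The TCF/LEF letters CTTTGAT, found in 3.21% of windows, and the nuclear receptor letters AGGTCA, found in 14%, were in none of the 6.

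Per kilobase of exon, the mean level in ASC-like cells of 7 mice was highest for Sfrp2 (63 ± 28 CPM per kb, SD), followed by Sfrp4 (42.4 ± 28.1), Rspo1 (12.8 ± 3.19), Sfrp1 (11.2 ± 10.6), Fzd1 (9.64 ± 2.45), Frzb (8.96 ± 12.9), Dkk3 (6.5 ± 4.25), Dkk2 (0.688 ± 0.713) and Wnt4 (0.278 ± 0.187). Neighbours in this order differed by less than the larger of their SDs, except Sfrp4 and Rspo1 and again Dkk3 and Dkk2. Relative to its mean, the spread over mice was narrowest for Rspo1 and Fzd1 and widest for Frzb and Dkk2.

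In EC-like cells of 5 mice the members were near 0. Of the 9, 7 passed the limit of more than 600 reads in at least 2 sums, each through its ASC-like sums alone, since no EC-like sum of a member passed it, so that these 7 were higher in ASC-like cells was set by the filter and is given as a description. In EC-like cells of all 5 mice Frzb had 7 reads, Rspo1 9, Dkk3 12, Sfrp1 13, Sfrp2 448, Fzd1 481 and Sfrp4 658, against 21947 (Dkk3) to 317070 (Sfrp4) in ASC-like cells of the same mice. The fitted log2 differences were 7.29 (Sfrp2) to 10.16 (Dkk3). In this comparison 22.7% of 12207 tested genes were called (edgeR quasi-likelihood test with mouse as a block), a call being an adjusted p under 0.05 with a fold change above 2.6. Sfrp4 reached 0.792 ± 0.986 CPM in EC-like cells of 5 mice and 177 ± 117 CPM in ASC-like cells of 7. Wnt4 and Dkk2 were too low to test.

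Against macrophage-like cells, which only mice 1 and 5 supplied in number, 25.2% of 8036 genes were called. The 6 members tested passed the filter through ASC-like sums alone, and their values are a description. Macrophage-like cells held 43 reads of Sfrp4, 14 of Sfrp2 and 5 of Dkk3, against 20567, 28081 and 4158 in ASC-like cells of the same mice. Sfrp1 and Rspo1 had 2 macrophage reads each and Fzd1 had 3, and over both mice the ratios were 3130 (95% Poisson interval 866 to 25800), 1090 (300 to 8960) and 1310 (447 to 6340). These intervals cover counting error only. The fit had 1 residual degree of freedom. Dkk2, too low to test, stood at 0.738 CPM in macrophage-like cells of mouse 1 and 0.0788 CPM in those of mouse 5, and Wnt4 at 0.399 and 0.236 CPM.

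In mural cells Fzd1 and Dkk3 had the highest levels of the members, in an order that differed between the mice. Fzd1, a Frizzled receptor (chromosome 5, 4753839 to 4758035, minus strand), stood at 64.8 CPM in pericyte-like cells of male mouse 1, 13.9 CPM in those of female mouse 2 and 27.2 CPM in VSMC-like cells of mouse 1, a range that overlaps the 26.7 to 56.2 CPM of ASC-like sums. Dkk3 stood at 4.87 and 26 CPM in pericyte-like cells of mice 1 and 2 and at 0.32 CPM in VSMC-like cells, so only the 13 pericyte-like cells of mouse 2 lay within the 6.23 to 48.1 CPM of ASC-like sums. Sfrp1, Sfrp2, Sfrp4 and Rspo1 were at or below 2.08 CPM in every pericyte-like and VSMC-like sum. After each cell was thinned to 150000 reads, 31.7% of pericyte-like cells (95% exact binomial interval 20.3 to 45) and 14.6% of VSMC-like cells (5.57 to 29.2) had a Fzd1 read, against 1.43% of EC-like cells (0.62 to 2.8). Dkk3 reads were in 8.33% of pericyte-like cells (2.76 to 18.4) and in 0 of 41 VSMC-like cells, which allows a share of up to 7.32%, against 0.716% of EC-like cells (0.195 to 1.82). The intervals pool the cells of several mice and cover counting error only. The test of ASC-like against mural-like cells rested on 2 mice and 1 residual degree of freedom and called 0 of 9701 genes (0%), although 1373 had an unadjusted p under 0.05, the likelihood ratio test called 1018 and DESeq2 1387. Sfrp1, Sfrp2, Sfrp4 and Rspo1 had 39, 26, 9 and 6 mural reads and passed the filter through ASC-like sums alone. Their direction was set by the filter, and their fitted differences of 7.41, 8.98, 9.1 and 8.1 (adjusted p 0.11 to 0.2) are a description. The differences were 0.56 for Dkk3 and 0.7 for Fzd1 (0.83 and 0.69).

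**Figure D1:**
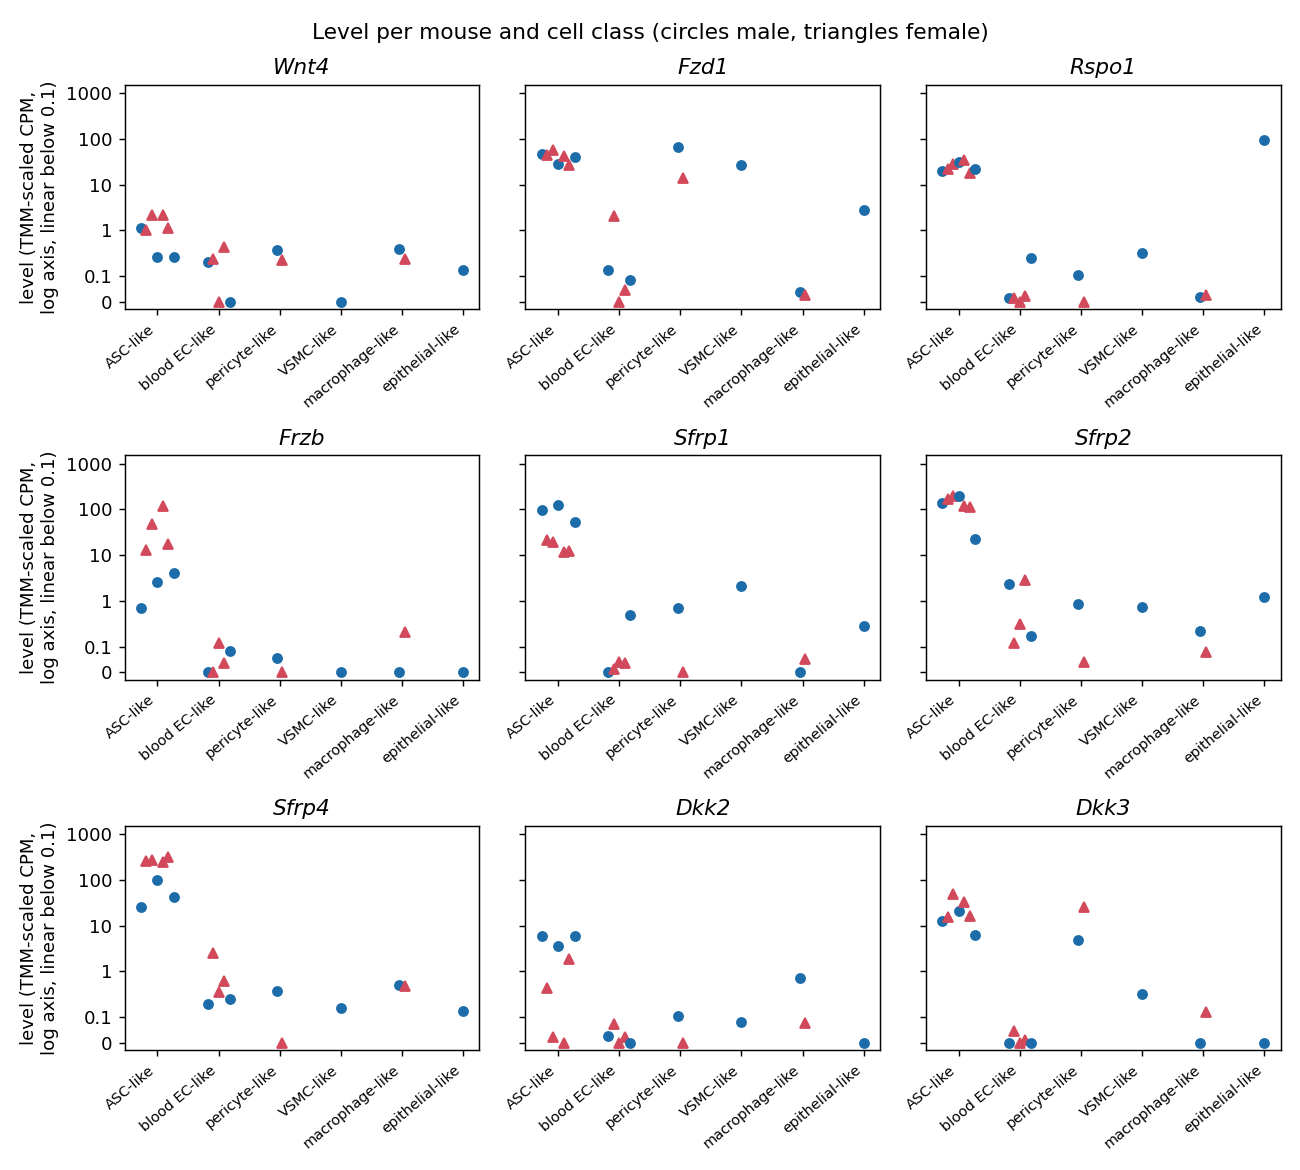
Level of each of the 9 genes by cell class (TMM-scaled CPM on a log axis that is linear below 0.1), 1 point per mouse with at least 10 cells of the class, circles male and triangles female. ASC-like points lie above all others for the SFRP genes, while Fzd1 points of pericyte-like cells (13.9 and 64.8 CPM) reach the ASC range and the single epithelial-like point of Rspo1 (92.6 CPM) lies above it.

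Wnt4, a WNT ligand (chromosome 4, 137277489 to 137299726, plus strand), was the least abundant member per kilobase. Its level in ASC-like sums was 1.13, 0.263 and 0.259 CPM in male mice 1, 4 and 8 and 1.03, 2.2, 2.14 and 1.13 CPM in female mice 2, 3, 5 and 6/7. The male and female ranges overlapped, and the gene was too low to test. After thinning, 4.49% of ASC-like cells (95% exact binomial interval 3.67 to 5.43) and 3.94% of EC-like cells (2.48 to 5.9) had a Wnt4 read, at median depths of 669455 and 517938.5 reads. The share with at least 5 reads was 1.29% in ASC-like and 0% in EC-like cells, and in mice with both classes the Wnt4 reads numbered 1494 and 106. Within ASC-like cells the share was 3.03% (1.97 to 4.44) in ASC1a-like, 7.23% (5.36 to 9.5) in ASC1b-like and 3.75% (2.53 to 5.34) in ASC2-like cells. Each interval for any read overlapped that of EC-like cells. All these intervals pool the cells of several mice and cover counting error only, so their overlap is no test between classes.

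Fzd1 and Rspo1 were present in ASC-like cells of every mouse within narrow ranges. Fzd1 measured 45.6, 27.9 and 41 CPM in male and 43.8, 56.2, 42.1 and 26.7 CPM in female ASC-like sums, in the mouse order given above. Rspo1, an R-spondin that potentiates WNT signals (chromosome 4, 124986430 to 125009099, plus strand), measured 20.1, 30.8 and 21.6 CPM in male and 21.5, 28.2, 34 and 17.6 CPM in female sums. Both genes overlapped between the sexes and neither was called in any subtype. Within subtypes the fitted sex difference of Fzd1 ran from -0.47 in ASC1b-like to 0.14 in ASC2-like cells and that of Rspo1 from -0.29 in ASC2-like to 0.28 in ASC1a-like cells. The study itself draws attention to Wnt4, Rspo1, Fzd1 and Frzb in pgWAT, in part from other samples, so their selection is not independent of what it saw. In a passage on cultured stromal vascular cells and sorted ASC, it reports Wnt4 as enriched in female pgWAT cells. It describes Fzd1 as expressed in pgWAT above all in female ASC1a/b cells. Here mean levels in male and female ASC-like sums were 0.549 and 1.63 CPM for Wnt4 and 38.2 and 42.2 CPM for Fzd1. The ranges of both overlapped between the sexes, also in ASC1a-like and ASC1b-like sums. Wnt4 was too low to test in these sums, and they are other material than the cultured cells, so the overlap is no test of that report.

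Of the 4 secreted frizzled-related genes, Frzb and Sfrp4 were higher in female and Sfrp1 in male ASC-like cells. Frzb (also named Sfrp3, chromosome 2, 80411970 to 80447625, minus strand) measured 0.713, 2.55 and 4.03 CPM in male and 12.9, 48.9, 116 and 17.8 CPM in female ASC-like sums. Every female sum lay above every male sum, and the females themselves spanned 12.9 to 116 CPM. The difference, male against female, was -4.35 on the log2 scale (SE 0.879, adjusted p = 0.036). The male sums held 105, 738 and 343 reads, so the gene passed the filter through the females, where it was high.

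Sfrp1 (chromosome 8, 23411502 to 23449632, plus strand) went the other way, at 99, 126 and 54 CPM in male and 21, 19.7, 11.6 and 12.4 CPM in female sums. The ranges did not overlap, and male cells were higher by 2.51 (SE 0.348, adjusted p = 0.0062). The group means were 93.1 ± 36.5 CPM (SD, n = 3) and 16.2 ± 4.85 CPM (SD, n = 4).

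Sfrp4 (chromosome 13, 19623104 to 19632994, plus strand) measured 26.1, 101 and 42.5 CPM in male and 252, 269, 240 and 312 CPM in female sums. The female sums lay close together and above all male sums, and the difference was -2.3 (SE 0.424, adjusted p = 0.024). Sfrp2 (chromosome 3, 83766321 to 83774316, plus strand) overlapped, at 135, 197 and 22.1 CPM in male and 172, 191, 117 and 115 CPM in female sums, with male mouse 8 far below the rest. Its difference was -0.35 (SE 0.561, adjusted p = 0.76).

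Taking the 4 genes per kilobase, Sfrp1 made up 19.9 to 36.3% of their summed level in male and 1.76 to 3.22% in female ASC-like cells. Sfrp4 made up 6.82 to 29.8% in male and 37.3 to 54.6% in female mice. Sfrp2 was the largest share in 2 of 3 males (68.3 and 63%) and in female mice 2 and 3 (53.6 and 51.4%). The summed level ran from 34 CPM per kb in male mouse 8 to 173 in female mouse 3, and the male and female ranges (34 to 145 and 137 to 173) overlapped. Within ASC1a-like cells Sfrp1 made up 52.1 to 87.3% in males and 3.57 to 10.8% in females, where Frzb alone made up 76.8% in female mouse 5. Within ASC1b-like cells Sfrp4 made up 42.5 to 65.4% in females and 2.62 to 32.9% in males.

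The Dickkopf genes were less abundant. Dkk2, an antagonist at the LRP co-receptors (chromosome 3, 132085292 to 132180304, plus strand), measured 6.03, 3.6 and 5.85 CPM in male and 0.441, 0.0241, 0 and 1.91 CPM in female sums. All male sums lay above all female sums, but the difference of 3.06 (SE 1.3) did not pass the test (adjusted p = 0.24). Dkk2 passed the filter through the males alone (0 to 549 reads in females), so a higher male level was favoured by the filter. Dkk3, a divergent Dickkopf family member (chromosome 7, 112116017 to 112159057, minus strand), measured 12.4, 20.7 and 6.23 CPM in male and 15.5, 48.1, 33.3 and 16.6 CPM in female sums. These ranges overlapped and the difference of -1.12 (SE 0.479) did not pass (adjusted p = 0.24).

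In all, 3 of 8 testable members were called between the sexes in ASC-like cells, where 2.23% of 11822 genes were called. Male and female sums did not overlap for 4 of the 8 (Frzb, Sfrp1, Sfrp4 and Dkk2), and for 15.8% of all tested genes. Of these members, Frzb passed the filter through the females and Dkk2 through the males, the sex in which each was higher. When the cells were restricted to the plates labelled with the PDGFRB-positive sort alone (male mice 1 and 4, female mice 3 and 5, an alternative added after the data were seen), none of the members was called, with differences of -5.69 for Frzb (adjusted p = 0.05), 2.88 for Sfrp1 (0.071) and -2.03 for Sfrp4 (0.43). In that fit 32 genes were called in all, against 264 in the main fit. On those 4 plates alone Frzb still stood at 0.792 and 2.88 CPM in the males and 54.6 and 129 CPM in the females, Sfrp1 at 110 and 142 against 22 and 12.9 CPM, and Sfrp4 at 29 and 114 against 301 and 267 CPM, without overlap. Frzb also lost its call without mouse 1, 4, 5, 6/7 or 8 (adjusted p up to 0.097, difference -4.93 to -3.47) and without cells rich in markers of another class (0.095, -4.29), and Sfrp4 lost its call without mouse 5, 6/7 or 8 (up to 0.099, -2.94 to -1.98), while Sfrp1 was called without each mouse in turn (0.0058 to 0.035). Mesothelial markers were uneven among the ASC-like sums, at 68.9, 19.5 and 0.0118 CPM in male and 0.14, 0, 103 and 0.907 CPM in female mice, and their part in these results was not tested.

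**Figure D2:**
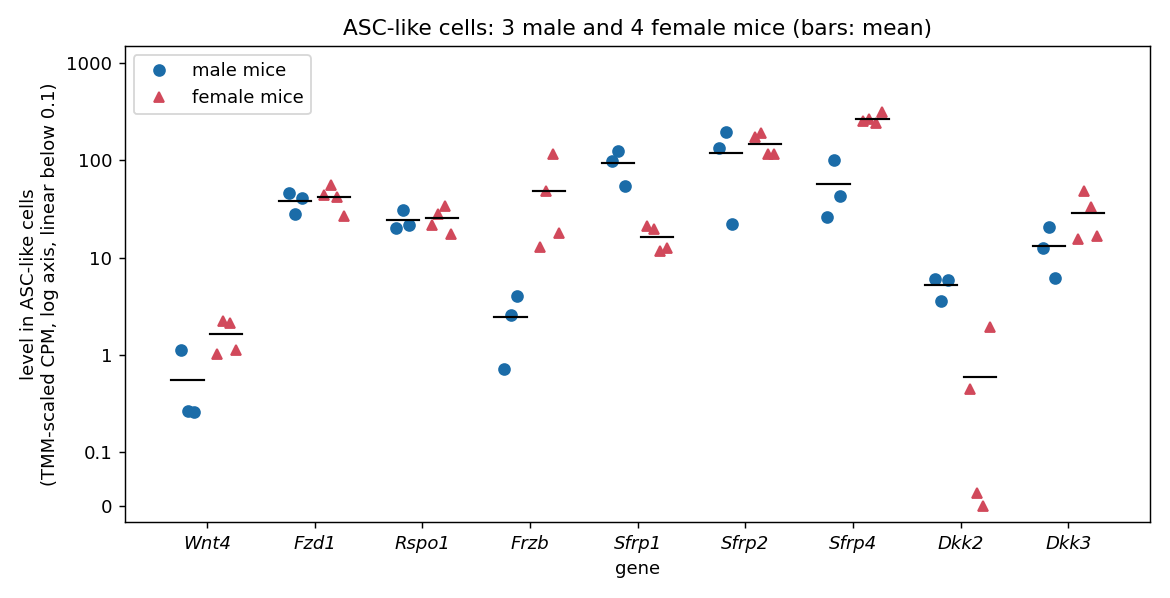
Level of the 9 genes in ASC-like cells (TMM-scaled CPM on a log axis that is linear below 0.1), 1 point per mouse, circles for 3 male and triangles for 4 female mice, bars at the mean. Male and female points separate for Frzb, Sfrp1, Sfrp4 and Dkk2 and overlap for the other genes, Fzd1 and Rspo1 most closely.

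A sum cannot tell fewer expressing cells from less RNA per cell, so the share of cells with a read is given beside it. After thinning to 150000 reads, Frzb was seen in 1.64, 3.03 and 2.48% of ASC-like cells of male mice 1, 4 and 8 and in 13.9, 25.9, 39.4 and 15.7% of those of female mice 2, 3, 5 and 6/7, against 0.179% of EC-like cells. Sfrp1 was seen in 64.8, 86.8 and 44.1% of male and 25.2, 21.5, 21.2 and 20.3% of female cells, against 0.716% of EC-like cells. Sfrp4 was seen in 22.5, 65.6 and 23% of male and 67.6, 74.4, 59.6 and 71.7% of female cells, so mouse 4 fell within the female range for the share although its level did not.

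Over all ASC-like cells, Sfrp4 was seen in 60.4% (58.3 to 62.4), Sfrp2 in 56.8% (54.7 to 58.9), Fzd1 in 46.5% (44.4 to 48.6), Sfrp1 in 39.4% (37.4 to 41.4), Rspo1 in 32.9% (31 to 34.9), Dkk3 in 20.1% (18.5 to 21.8), Frzb in 13.3% (11.9 to 14.7) and Dkk2 in 3.07% (2.39 to 3.87). The intervals pool the cells of all mice and cover counting error only. Shares per mouse ran from 22.5 to 74.4% for Sfrp4 and from 13 to 70.6% for Sfrp2. Over the SFRP genes, 57.4% of ASC-like cells had reads of at least 2 of the 4 and 8.98% of none. Male mouse 8 stood apart with 36% of cells without any. Dkk2 was seen in 6.97, 9.09 and 3.73% of male and 0.937, 0.291, 0 and 1.75% of female cells, where 0 of 104 cells in mouse 5 allows a share of up to 2.88%. In females, among Frzb-positive cells 51, 38.2, 41.5 and 24.4% had Sfrp1 reads in mice 2, 3, 5 and 6/7, against 21, 15.7, 7.94 and 19.5% of the other cells. Dkk3 reads were in 49, 40.4, 26.8 and 35.6% of Frzb-positive and 15.7, 24.7, 23.8 and 15.8% of the other cells. Sfrp2 reads were in 36.5, 69.7, 36.6 and 53.3% of Frzb-positive and 67.7, 71, 46 and 60.6% of the other cells. In mouse 2 the cells came from a DPP4-positive and a DPP4-negative plate. These held Frzb in 2.11 and 26.1% and Sfrp2 in 81 and 45.1% of cells, so the shares of mouse 2 mix opposed sorts. Reads of a cell share a library, and all these shares are descriptions.

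Among the ASC subtypes, ASC1b-like cells were highest in Frzb and Sfrp1 in 7 of 7 mice. For Frzb they measured 1.71, 6.7 and 9.71 CPM in male mice 1, 4 and 8 and 29.4, 84.7, 202 and 40.7 CPM in female mice 2, 3, 5 and 6/7. ASC2-like cells measured 0.0184, 0.0562 and 4.8 CPM in the males and 1.39, 19.7, 0.703 and 0.433 CPM in the females. ASC1b-like exceeded ASC2-like cells by 4.14 (SE 1.09, adjusted p = 0.025), in 7 of 7 mice. In ASC2-like sums Frzb had 1, 5 and 146 reads in the males and 367, 1373, 17 and 44 in the females. The gene therefore passed the filter through the other subtypes, where it was high, and a lower ASC2-like level was favoured by the filter.

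For Sfrp1, ASC1b-like cells measured 187, 216 and 71.4 CPM in males and 43.2, 41.8, 25.6 and 32.3 CPM in females. ASC2-like cells measured 31.3, 63.8 and 60.4 CPM in males and 2.21, 5.68, 0.827 and 2.51 CPM in females. Sfrp1 was higher in ASC1b-like than ASC2-like cells by 2.7 (SE 0.438, adjusted p = 0.00061) and in ASC1a-like than ASC2-like cells by 1.47 (SE 0.422, adjusted p = 0.033), the latter in 6 of 7 mice.

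Sfrp2 and Sfrp4 were lowest in ASC1a-like cells in 7 of 7 mice. For Sfrp4, ASC1a-like cells measured 4.27, 8.91 and 4.94 CPM in males and 38.6, 44.8, 23.2 and 39.8 CPM in females. ASC1a-like cells were below ASC2-like cells by -3.68 (SE 0.3, adjusted p = 3.1e-07) and below ASC1b-like cells by -3.51 (SE 0.299, adjusted p = 1.5e-05). The highest subtype was ASC2-like in the 3 males (53.7, 240 and 71.8 CPM, against 18.4, 65.3 and 62.3 CPM in ASC1b-like cells) and ASC1b-like in the 4 females (451, 473, 437 and 646 CPM, against 326, 369, 276 and 388 CPM), and the test of the sex by subtype terms did not call it. The labels rank cells within a mouse, and whether they mark the same cells in males and females was not tested.

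For Sfrp2, ASC1a-like cells measured 10.2, 35.5 and 0.303 CPM in males and 60.1, 82.7, 13.1 and 65.1 CPM in females, and ASC2-like cells were highest in 5 of 7 mice. ASC1a-like cells were below ASC2-like cells by -2.92 (SE 0.555, adjusted p = 0.0018) and below ASC1b-like cells by -2.6 (SE 0.567, adjusted p = 0.023). Dkk3 was also lower in ASC1a-like than ASC1b-like cells, by -2.73 (SE 0.567, adjusted p = 0.017), and was highest in ASC1b-like cells in 6 of 7 mice.

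Rspo1 and Fzd1 were not called between any pair of subtypes, with differences of -0.4 to 0.01 and -0.48 to 0.5. Fzd1 was nonetheless highest in ASC1b-like cells in 6 of 7 mice, at 59.1, 37.3 and 29.9 CPM in males and 69.6, 72.8, 48.3 and 41.7 CPM in females, against 36.7, 21 and 59.9 CPM and 31.1, 56.1, 44.3 and 14.3 CPM in ASC2-like cells. Dkk2 was too low to test; in males it stood at 8.5, 8.8 and 12.5 CPM in ASC1a-like and at 0.423, 0.202 and 0.0329 CPM in ASC2-like cells. Of 7 testable members 3 were called for ASC1a-like against ASC2-like cells, 2 for ASC1b-like against ASC2-like and 3 for ASC1a-like against ASC1b-like, where 3.6, 2.82 and 0.636% of 11158 genes were called. The calls for ASC1b-like against ASC2-like cells were Sfrp1 and Frzb, the latter with the filter limit given above. All these subtype tests keep the mouse as a block, and without it the counts were 1, 0 and 0, where 213, 125 and 5 genes were called in all. Leaving out single mice ended the call of Sfrp1 for ASC1a-like against ASC2-like (without mouse 1, 2, 3, 5 or 6/7, adjusted p up to 0.11) and of Frzb for ASC1b-like against ASC2-like (1, 2, 4, 5 or 6/7, up to 0.084). For ASC1a-like against ASC1b-like it ended the calls of Sfrp2 (1, 4 or 5, up to 0.084, and also without cells rich in markers of another class, 0.16) and Dkk3 (2, 4, 5 or 6/7, up to 0.065), whereas Sfrp4 stayed at or below 2e-04. Without mouse 8, Frzb was also called for ASC1a-like against ASC2-like (0.013) and Dkk3 for ASC1b-like against ASC2-like (0.012), and without mouse 3 Dkk3 for ASC1a-like against ASC2-like (0.049).

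**Figure D3:**
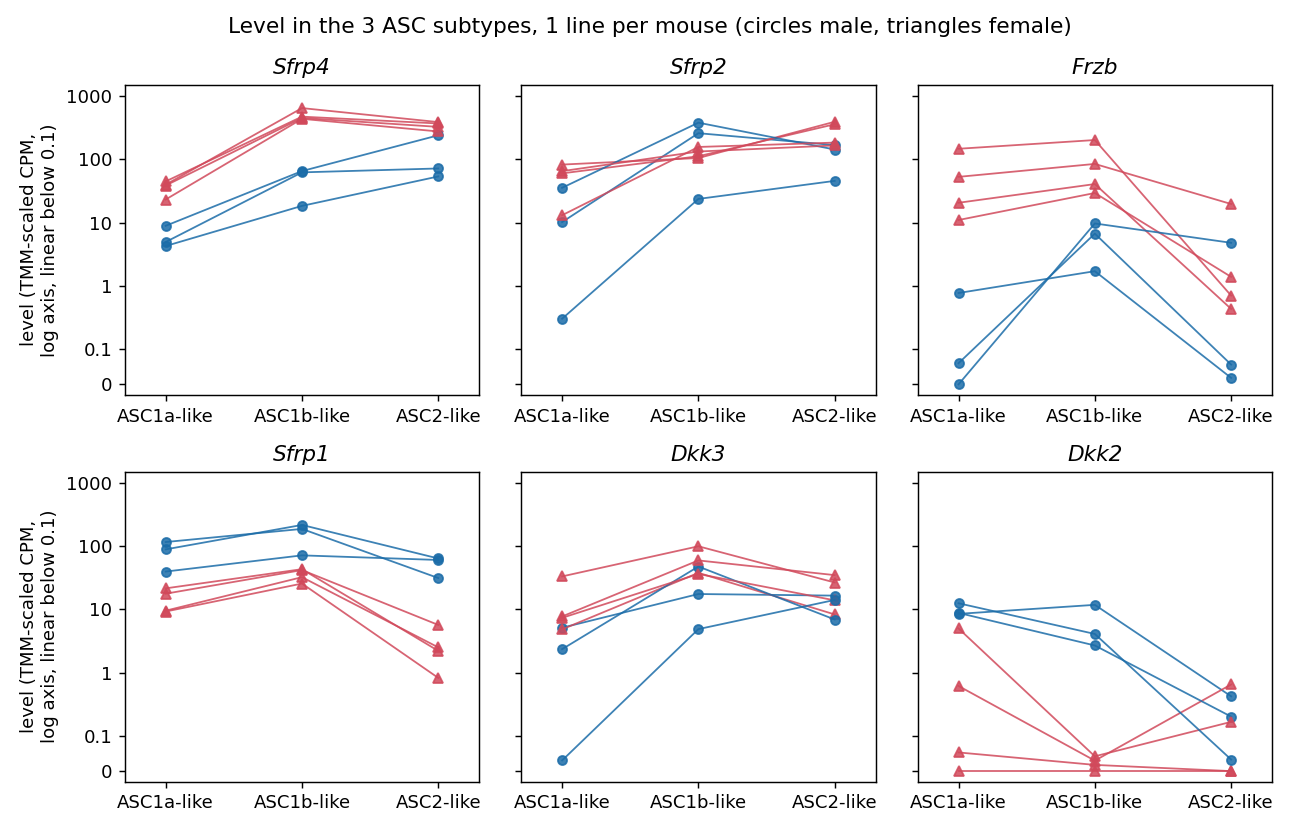
Level of 6 genes in ASC1a-like, ASC1b-like and ASC2-like cells (TMM-scaled CPM on a log axis that is linear below 0.1), 1 line per mouse, circles male and triangles female. Frzb and Sfrp1 lines peak at ASC1b-like in 7 of 7 mice, Sfrp4 lines start low at ASC1a-like, and Dkk2 lines of the males fall towards ASC2-like.

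Within subtypes, Sfrp1 was called between the sexes in all 3, and Frzb and Sfrp4 in ASC1a-like and ASC1b-like cells. Because the labels are relative within a mouse, a subtype may hold different cells in males and females, and this was not tested. In ASC1a-like cells Frzb had 36, 5 and 0 reads in the males and 2175 to 3984 in the females, and passed the filter through the females alone, so its fitted value of -7.68 (adjusted p = 0.027) rests on few reads and is no measure of the size. The other differences were 2.51 for Sfrp1 (0.02) and -2.63 for Sfrp4 (0.0075), and 1.5% of 9303 genes were called. In ASC1b-like cells Frzb, Sfrp1 and Sfrp4 differed by -3.93 (0.033), 2.1 (0.019) and -3.42 (0.0058), with 1.56% of 8989 genes called. Frzb in ASC1b-like cells (68, 728 and 197 male reads) and Sfrp4 in ASC1a-like cells (199, 740 and 163) also passed the filter through the females. In ASC2-like cells Sfrp1, which passed the filter through the males alone (20 to 583 reads in females), differed by 4.2 (0.0075) and Sfrp4 by -1.53 (0.19), Frzb was too low to test, and 0.481% of 9150 genes were called. Groups did not overlap for 3 of 7 testable members in ASC1a-like (13.8% of all genes), 3 of 7 in ASC1b-like (13.7%) and 2 of 6 in ASC2-like cells (13.5%). In ASC1a-like and ASC1b-like cells Sfrp4 was called without each mouse in turn (adjusted p 0.012 to 0.031 and 0.0037 to 0.021), but Sfrp1 was not without mouse 1, 4, 5 or 6/7 (up to 0.1 and 0.089), nor Frzb without mouse 4, 5, 6/7 or 8 in ASC1a-like (up to 0.073, fitted -10.56 to -6.54) or without any mouse but 2 in ASC1b-like cells (up to 0.085, -4.53 to -3.12). In ASC2-like cells Sfrp1 lost its call without mouse 6/7 (0.056), and Sfrp4 was called without mouse 4 (0.026). The Sfrp1 call was also lost with library totals in place of TMM in ASC1a-like (1.87, adjusted p = 0.11) and ASC1b-like cells (1.45, 0.14) and with totals outside ribosomal RNA in ASC1b-like cells (1.82, 0.062), and the Frzb call in ASC1b-like cells without cells rich in markers of another class (-3.74, 0.12).

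Whether the sex difference itself varied between subtypes was tested with the sex by subtype terms. No member was called, beside 0.0448% of 11158 genes, and 865 genes had an unadjusted p under 0.05. Sfrp4 had an unadjusted p of 0.00095 (adjusted p = 0.2) and Sfrp1 of 0.0017 (0.23) in the quasi-likelihood fit, and both were called by the likelihood ratio test (adjusted p 0.0084 and 0.0094) and by DESeq2 (0.0023 and 0.0033), and Sfrp4 by the quasi-likelihood fit without mouse 8 (0.013). In EC-like cells, where 0.0493% of 8120 genes differed between the sexes, no member was abundant enough to test, and the members with the most reads were Sfrp4 with 658 and Fzd1 with 481.

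The DPP4 sort gave a view of the subtypes that did not use the scores, since DPP4 marks ASC2. It came from female mouse 2 alone, with 379 ASC-like cells on the DPP4-positive and 368 on the DPP4-negative plate, and has no replicate and no test. The column names of the positive plate carry a different gate code from its label, and the label was followed. Frzb stood at 3.1 CPM (95% Poisson interval 2.9 to 3.31) on the positive and 30 CPM (29.4 to 30.6) on the negative plate, Sfrp1 at 4.87 (4.61 to 5.14) and 48.8 CPM (48 to 49.5), and Wnt4 at 0.286 (0.226 to 0.356) and 2.36 CPM (2.19 to 2.53). Sfrp2 went the other way, at 387 CPM (385 to 390) and 98.2 CPM (97.1 to 99.2). Dkk3 stood at 10.5 and 30 CPM. These 5 of the 8 members above the read limit were past 2.6-fold, where 6.93% of 13164 genes were.

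Sfrp4, Rspo1 and Fzd1 stayed within 2.6-fold, at 294 and 382, 28.3 and 29.8, and 44.5 and 72.1 CPM. The share of cells with a read after thinning was 81% (76.7 to 84.8) on the positive and 45.1% (39.9 to 50.4) on the negative plate for Sfrp2, 2.11% (0.916 to 4.12) and 26.1% (21.7 to 30.9) for Frzb, and 7.39% (4.97 to 10.5) and 43.5% (38.3 to 48.7) for Sfrp1.

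**Figure D4:**
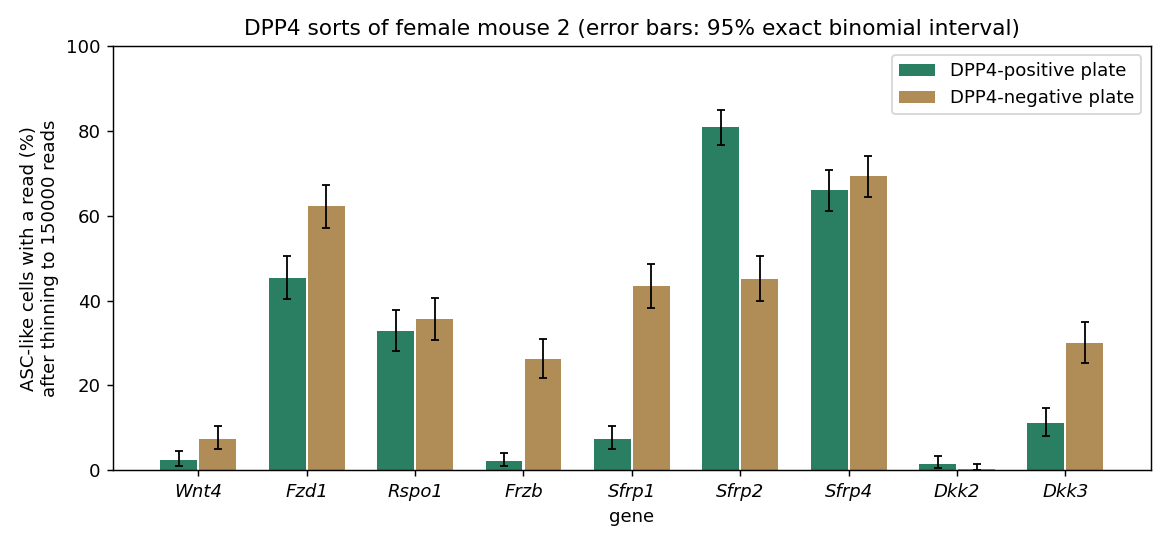
Share of ASC-like cells with at least 1 read of each gene after thinning to 150000 reads, on the DPP4-positive (379 cells) and DPP4-negative (368 cells) plates of female mouse 2, with 95% exact binomial intervals that cover counting error only. Sfrp2 is higher on the DPP4-positive plate (81 against 45.1%), while Frzb, Sfrp1 and Dkk3 are higher on the DPP4-negative plate.

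Over the 21 sums of 7 mice and 3 subtypes, centred within each mouse, members were compared by their pattern of log2(CPM + 1), and as the sums share mice and libraries the correlations are descriptions. Frzb and Sfrp1 were alike (Pearson r = 0.88), and Sfrp2, Sfrp4 and Dkk3 were alike (0.71 to 0.77), whereas Frzb and Sfrp4 were not (-0.02). Among 11158 genes the pattern of Sfrp1 was most like those of Olfml3 (0.96), Pik3r1 (0.94) and C4b (0.93), and that of Frzb like Gng8 (0.92), Gucy1a1 (0.91) and Icam1 (0.9). Sfrp4 was most like Col14a1 (0.92), Cd9 and Cd200 (both 0.9), Sfrp2 like Tacc2, Pmp22 (both 0.91) and Nacad (0.9), and Dkk3 like Mfap4 (0.89), Itgbl1 (0.88) and Cd200 (0.84). Rspo1 was most like Epb41l4aos, Clu (both 0.84) and Swap70 (0.83), and Fzd1 like Setd1b (0.81), Cpz (0.78) and Tpm2 (0.76).

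Of the wider WNT pathway, 70 further genes had a row. The sex comparison of ASC-like cells tested 50 of them, of which 3 were higher in male and 1 in female mice. Among all 11822 tested genes 2.23% were called. Higher in males were Ror1, a receptor for non-canonical WNT ligands (1.84, SE 0.262, adjusted p = 0.0072), and the matricellular genes Ccn4 (2.55, SE 0.518, adjusted p = 0.037) and Ccn5 (3.46, SE 0.523, adjusted p = 0.0099), and higher in females was the ligand Wnt2 (-1.92, SE 0.404, adjusted p = 0.042). In ASC1a-like cells Ror1 (1.99) and the R-spondin Rspo3 (4.56) were higher in males, and in ASC1b-like cells Ccn5 was (3.26), with adjusted p of 0.017, 0.026 and 0.0085. Calls of the wider pathway genes, here and below, were followed in the main fit alone. Their dependence on other settings or on single mice was not examined, unlike that of the members. By list, with the members included, the median difference was 1.05 for ligands, 0.73 for the R-spondin module, 0.48 for target genes and 0.32 for the 17 testable signal transduction genes. It was 0.03 for secretion genes, -0.13 for receptors and -0.35 for secreted antagonists, where the median over all tested genes was 0.04. The signal transduction median was 0.07 in ASC1a-like, 0.07 in ASC1b-like and 0.36 in ASC2-like cells. The lists were not tested as sets.

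Between subtypes 48 were tested, and those called were 3 ligands and Ccn5. Of all 11158 genes, 3.6% were called for ASC1a-like against ASC2-like, 2.82% for ASC1b-like against ASC2-like and 0.636% for ASC1a-like against ASC1b-like cells. Wnt2 (-3.1), Wnt2b (-4.23) and Wnt11 (-1.61) were lower in ASC1a-like than in ASC2-like cells (adjusted p 0.011, 0.042 and 0.034), and Wnt2 was also lower in ASC1b-like than in ASC2-like cells (-2.76). Ccn5 was higher in ASC1b-like than in ASC2-like (3.4) and in ASC1a-like cells (-3.51 for ASC1a-like against ASC1b-like).

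Against EC-like cells, 20 of 49 tested pathway genes were higher in ASC-like cells and 5 were lower, where 22.7% of all 12207 tested genes were called. Genes with few reads in EC-like cells passed the filter through ASC-like sums, as the members did, and their values are descriptions. The ligands Wnt2 and Wnt5b had 2 and 1 reads in EC-like cells, against 13344 and 5114 in ASC-like cells. The ligands Wnt5a (8.97) and Wnt11 (8.76), the receptor Fzd2 (8.56) and the regulators Dact1 (8.38) and Apcdd1 (7.64) were among the higher genes. Rspo3 had no read in EC-like cells and was at least 724-fold higher in ASC-like cells, against a floor of 3 reads over the group. Lower in ASC-like cells were the receptor Fzd6 (-6.54), the co-receptor Lrp5 (-2.63), Ccnd1 (-2.9), Ctnnb1, which encodes β-catenin (-1.62), and Apc (-1.4), named after their values were seen. Against macrophage-like cells, with the same limit, 9 of 30 were higher in ASC-like cells, where 25.2% of all 8036 tested genes were called. Among the 9 were Dact1 (8.61), Wnt5a (8.3), Axin2 (8.29), Ror2 (7.95), Tcf7l1 (7.22), Fzd4 (4.86) and Tcf7l2 (2.92), and Ptk7, without a macrophage read, was at least 348-fold higher.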

How the data were processed

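Smart-seq2 libraries of sorted pgWAT stromal vascular cells were measured. The authors aligned reads with STAR to mm10 and quantified with Salmon, and deposited whole-number counts per gene and cell; versions are not given in the sources used here. Cells were classed with Seurat 5.3.0 (3000 variable genes, 14 components, resolution 1.1, WNT genes left out), counts were summed per mouse and class (at least 10 cells), and sums were tested in edgeR 4.0.16 (R 4.3.3; TMM, quasi-likelihood, two-sided, Benjamini-Hochberg over all genes with more than 600 reads in at least 2 sums). Mouse was a block between classes and subtypes, since those sums come from the same animals. Clusters led by adipocyte genes or with a high mitochondrial share stayed unnamed, a limit set after the clusters were seen. No doublet caller was run; cells rich in markers of another class were left out as an alternative. The scripts were tested on simulated data.

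Other settings were the likelihood ratio test, DESeq2 1.42.0, other scalings and filters, and leaving out each mouse; the totals outside ribosomal RNA and the PDGFRB-positive sort alone were added after seeing the data. All 9 members are described, further WNT genes are named if called (up to 8 per comparison by size), and 3 genes are named per member by likeness. The members and lists were chosen with earlier results of these data known. Cells held 149931 to 3548334 reads. Reads are not molecules, so intervals cover counting error only. Symbols and positions came from the GENCODE annotation of GRCm38. The gate of the DPP4-positive plate was taken from its label.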

Additional observations from a re-analysis of the deposited data

Results flagged for a closer look

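In 3 of 36 groups of 4 female sums, 1 mouse stood far from the others by Dixon's criterion, which flags about 1 in 20 groups by chance. Frzb in ASC2-like cells stood at 19.7 CPM in female mouse 3, where the nearest other female was at 1.39 CPM. Dkk3 in ASC1a-like cells of the same mouse stood at 33.2 CPM (nearest 7.73), and Dkk2 in ASC1a-like cells of female mouse 6/7 at 5 CPM (nearest 0.616).

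Signal also appeared in cell groups outside the comparisons. Rspo1 reached 92.6 CPM (667 reads) in the 19 epithelial-like cells, all of male mouse 1, where Sfrp2 was at 1.25 and Fzd1 at 2.78 CPM. In 22 lymphatic EC-like cells Frzb was at 13 CPM, but its 157 reads came from 1 cell, and Dkk3 was at 0.331 CPM. In the unnamed cluster of 120 cells led by adipocyte genes, Sfrp4 was at 8.73, Fzd1 at 4.66, and Sfrp2 and Dkk3 each at 0.133 CPM. In the unnamed cluster of 49 cells with a median mitochondrial share of 5.73%, all from female mice, Sfrp2 was at 373, Sfrp4 at 254, Fzd1 at 16.6, Sfrp1 at 16.4, Frzb at 5.09, Dkk2 at 0.766, and Dkk3 and Rspo1 each at 0.279 CPM. No difference was tested for these groups.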

How the results depend on the processing

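Of 105 counts of called members under alternatives other than leaving out a mouse, 88 stayed within 1.5 times the main count. With a filter of at least 10 reads in 2 sums, 1 member was called in each of 4 comparisons: the sexes in ASC-like and in ASC1a-like cells, ASC1b-like against ASC2-like and ASC1a-like against ASC1b-like. Those comparisons had 174, 75, 332 and 47 genes called in all. On the PDGFRB-positive sort alone (2 male and 2 female mice), 0 were called between the sexes in ASC-like cells and in each subtype. Genes called in all numbered 32 in ASC-like, 28 in ASC1a-like, 14 in ASC1b-like and 1 in ASC2-like cells. DESeq2 called 2 in ASC2-like cells between the sexes (275 genes in all) and 2 for the sex by subtype terms (100). It called 5 for ASC1a-like against ASC2-like (520) and 4 against mural-like cells (1387). The likelihood ratio test called 2 for the sex by subtype terms (99) and 4 against mural-like cells (1018). The members called against mural-like cells, Sfrp1, Sfrp2, Sfrp4 and Rspo1, passed the filter through ASC-like sums alone. With no replicate block (mouse not in the model), 1, 0 and 0 members were called for ASC1a-like against ASC2-like, ASC1b-like against ASC2-like and ASC1a-like against ASC1b-like cells. Genes called in all numbered 213, 125 and 5. The cause was not tested. Leaving out each mouse in turn gave 1 to 3 calls between the sexes in ASC-like, ASC1a-like and ASC1b-like cells, 0 to 2 in ASC2-like cells, 0 to 1 for the sex by subtype terms, and 1 to 3 for both ASC1b-like against ASC2-like and ASC1a-like against ASC1b-like cells.

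Leaving out cells rich in markers of another class ended the calls of Frzb between the sexes in ASC-like (adjusted p = 0.095 in edgeR) and ASC1b-like cells (0.12) and of Sfrp2 for ASC1a-like against ASC1b-like cells (0.16), and library totals ended those of Sfrp1 in ASC1a-like (0.11) and ASC1b-like cells (0.14).

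Changes of sign befell values that were not called. Between the sexes, Rspo1 became 0.2 (ASC-like), 0.08 (ASC1b-like) and 0.19 (ASC2-like) and Fzd1 0.12 (ASC1a-like) with classes from the markers of each cell. With library totals alone Rspo1 became -0.16 (ASC1a-like) and Fzd1 -0.66 (ASC2-like), with totals outside ribosomal RNA Fzd1 became -0.17 (ASC2-like), and on the PDGFRB-positive sort Sfrp2 became 0.08 (ASC-like) and Fzd1 -0.75 (ASC2-like). For ASC1a-like against ASC2-like cells Fzd1 became -0.07 with classes from markers, -0.05 with totals outside ribosomal RNA and -0.04 with no replicate block. For ASC1b-like against ASC2-like cells Rspo1 became -0.02 with library totals, -0.09 with totals outside ribosomal RNA and -0.04 with no replicate block, where Sfrp4 became 0.33, and Dkk3 against mural-like cells became -0.15. Leaving out each mouse gave, between the sexes, -0.84 to 0.16 for Sfrp2, -0.24 to 0.1 for Rspo1 and -0.35 to 0.09 for Fzd1 in ASC-like cells, -0.17 to 0.52 for Rspo1 and -0.43 to 0.22 for Fzd1 in ASC1a-like, -0.2 to 0.04 for Rspo1 in ASC1b-like, and -0.51 to 0.06 for Rspo1 and -0.33 to 0.48 for Fzd1 in ASC2-like cells. It gave -0.58 to 0.23 for Fzd1 in the sex by subtype terms, -0.14 to 0.21 for Fzd1 in ASC1a-like against ASC2-like, and -0.33 to 0.14 for Sfrp4 and -0.09 to 0.13 for Rspo1 in ASC1b-like against ASC2-like cells.

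With 2 mice, leaving out a mouse left no residual degrees of freedom against mural-like and macrophage-like cells, and classes from the markers of each cell could not be fitted against mural-like cells.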
